A study of Mus musculus with 19 samples.

Results

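Levels of 10 genes of the sebaceous gland and its duct were followed across mouse skin tumours and normal skin. The genes were Scd1, Scd3, Elovl3, Fasn, Soat1, Far2, Awat2, Cidea, Mc5r and Krt79. They were taken by name as the rows of the gene count table whose Ensembl identifiers carry these symbols, and 10 of 10 were found among 34807 genes. RNA from 15 tumours and 4 samples of normal skin had been sequenced, 1 library each, in a study of the cell of origin of skin cancer.

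All tumours carried the mutant kinase BRAFV600E, switched on by tamoxifen or 4-hydroxytamoxifen through a CreERT2 recombinase in mice that were 7 to 20 weeks old. All 19 samples came from females. In the Ivl:BRAFV600E mice (6 tumours) the Ivl promoter drove the recombinase in keratinocytes committed to differentiation. In the K5:BRAFV600E mice (5 tumours) and the K14:BRAFV600E mice (4 tumours) the Krt5 or Krt14 promoter drove it in basal keratinocytes, and both promoters are also active in the outer cells of the hair follicle and the sebaceous gland. The tumours were labelled squamous cell carcinoma. The control was whole skin of wild-type mice (NormalSkin, 4 samples), for which the labels give the same range of 7 to 20 weeks. The study's methods give a narrower range of ages at induction. The body site of each sample is not in the labels, and the study describes Ivl tumours at more sites than K5 and K14 tumours. Its methods give tamoxifen for Ivl mice and 4-hydroxytamoxifen for K5 and K14 mice, and its Ivl tumours appeared later after induction. Site, inducer and time since induction therefore cannot be told apart from group. Nothing in the labels says whether libraries of a group came from separate animals, so the p-values measure only the spread between these samples.

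Sebaceous glands sit beside the hair follicle and empty into its canal. Their cells, the sebocytes, fill with lipid as they mature and then burst, releasing sebum, which in the mouse is rich in wax esters, cholesterol esters and diesters of long chain fatty acids. Fatty acid synthase (Fasn) makes the first chain, Elovl3 lengthens it, and the stearoyl-CoA desaturases Scd1 and Scd3 place a double bond in it. Far2 reduces fatty acids to fatty alcohols, the wax synthase Awat2 joins alcohol and acid, and Soat1 esterifies cholesterol. Cidea coats and enlarges lipid droplets, Mc5r is a melanocortin receptor of sebocytes, and Krt79 is a keratin of the duct and the upper follicle. Several of these genes have other sources in skin: Scd1 and Fasn are active in white fat, and Cidea and Elovl3 in brown fat.

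Scd1 and Scd3 are neighbours on mouse chromosome 19 and are alike enough for short reads to be shared, so their sequences are given before their counts. Scd1 lies at chr19:44394455-44407879 on the minus strand (GRCm38) and Scd3 at chr19:44203269-44244016 on the plus strand. Their coding sequences are 1065 and 1077 bases long, and 976 of 1078 aligned positions (90.5%) were identical. The longest stretch the 2 messages share is shown in capitals, 5′ to 3′, with 30 bases of flank on each side. It runs over 185 bases of exons 4 and 5, from coding base 463 to 647 in Scd1 and from 475 to 659 in Scd3.
Scd1: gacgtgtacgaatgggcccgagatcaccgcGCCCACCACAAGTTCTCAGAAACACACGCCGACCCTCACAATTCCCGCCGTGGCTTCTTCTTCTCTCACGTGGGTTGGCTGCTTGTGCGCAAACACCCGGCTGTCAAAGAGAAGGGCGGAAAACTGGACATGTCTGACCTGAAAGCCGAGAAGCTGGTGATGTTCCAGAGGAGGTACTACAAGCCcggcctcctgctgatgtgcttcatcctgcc
Scd3: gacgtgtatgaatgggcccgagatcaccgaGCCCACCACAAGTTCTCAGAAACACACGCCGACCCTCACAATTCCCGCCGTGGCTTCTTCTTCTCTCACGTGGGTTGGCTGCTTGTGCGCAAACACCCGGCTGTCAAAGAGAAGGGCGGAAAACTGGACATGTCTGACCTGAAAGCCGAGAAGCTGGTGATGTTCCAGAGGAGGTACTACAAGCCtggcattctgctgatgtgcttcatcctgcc
A read of 101 bases that falls inside the capitals fits both genes. Of all 101-base stretches of the exons, 2.54% in Scd1 and 2.47% in Scd3 recur in another Scd gene or a pseudogene, so the bulk of each gene is unique. Scd1 held far more counts than Scd3, for example 3419 against 65 in K14 tumour 3. A part of the Scd3 counts could therefore have come from Scd1. The size of that part is not known, it need not be small in the tumours, and this was not tested.

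The others are spread over the genome. Elovl3 lies at chr19:46131897-46135694, Fasn at chr11:120805846-120824547, Soat1 at chr1:156424525-156474331, Far2 at chr6:148047259-148182758, Awat2 at chrX:100402221-100442717 and Krt79 at chr15:101929332-101940324. Far2 overlaps Ergic2 on the opposite strand, and 9.07% of its 101-base stretches are shared with that gene, whose counts reached at most 3134 in a library. Whether strand was used in counting is not given in the sources used here.

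Promoter windows of RefSeq (GRCm38.p6, 250 bases before to 50 after the start) were at hand for 6 of the 10 members. The pair with the lowest and the highest ratio between tumours, described further on, is shown: Fasn, which held nearly the same level in each tumour, and Krt79, which had the highest ratio of highest to lowest tumour among the 8 members detected in every tumour. Capitals mark the CCAAT box and its reverse complement ATTGG, matched without overlap. An ATTGG that starts within the marked CCAAT of Fasn is therefore left in part in small letters. The Fasn window lies at chr11:120824498-120824797 and the Krt79 window at chr15:101940275-101940574, both on the minus strand.
Fasn: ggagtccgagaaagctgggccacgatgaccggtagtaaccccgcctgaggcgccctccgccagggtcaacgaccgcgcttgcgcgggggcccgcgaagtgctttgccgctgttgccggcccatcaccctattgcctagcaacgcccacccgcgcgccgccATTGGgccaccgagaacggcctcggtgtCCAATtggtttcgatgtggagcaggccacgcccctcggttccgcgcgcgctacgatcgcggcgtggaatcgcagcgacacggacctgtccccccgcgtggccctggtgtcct
Krt79: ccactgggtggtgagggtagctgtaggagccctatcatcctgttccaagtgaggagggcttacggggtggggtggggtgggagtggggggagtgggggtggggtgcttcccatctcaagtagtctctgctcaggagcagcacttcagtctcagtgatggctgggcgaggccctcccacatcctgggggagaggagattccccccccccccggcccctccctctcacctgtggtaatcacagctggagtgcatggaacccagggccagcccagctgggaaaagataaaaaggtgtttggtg
The Fasn window held 39 CpG dinucleotides, more than 95.6% of 32851 windows, and the Krt79 window held 3, against a median of 7. Far2 (21 CpG) and Soat1 (19) were also above that median, Scd3 had 6, and the 2 Awat2 windows had 1 and 4. Far2 varied widely between tumours with a CpG-rich window and Soat1 little, so the count of CpG did not order the genes by their spread. CpG counts and the letters TATAAA were chosen after seeing the data. Counted without overlap, the CCAAT box was present in Fasn (2), Soat1 (1) and both Awat2 windows (1 each) and in 37.4% of all windows. No match was found on either strand in the 6 genes to a sterol element (TCACNCCAC, 1.24% of windows), a DR1 element, the direct repeat bound by PPAR (0.381%), the E-box CACGTG (7.15%) or TATAAA (13.6%), which says only that these letters are not in these windows.

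Total counts per library lay between 45715309 and 72609771. Levels are given as CPM, counts relative to the library total, scaled by the trimmed mean of M values (TMM). The deposited counts carry an adjustment for batch made by the authors, and 4 libraries stood apart as a set: Ivl tumours 1, 2 and 3 and K5 tumour 1. Averaged, these 4 differed from the average of the remaining 15 by less than 0.1 log2 for 96.6% of 13954 genes, against a median of 29.5% over 3876 sets of 4. Among the members 9 of 10 were within this margin, with Mc5r at -0.17. Since their mean equals that of a mix of skin and tumours, results of the members against skin are given over 19 libraries and over the 15 outside this set (4 skin, 3 Ivl, 4 K5 and 4 K14 libraries). Ivl tumour 1 also stood apart in its low Krt14, the keratin of basal keratinocytes, at 5639 CPM against 23970 or more in each other tumour. Skin and tumour libraries also differed in kind. Relative to library totals without TMM, Rn7sk, a small nuclear RNA with no poly(A) tail, was at 2279 to 3276 CPM in skin. It was at 2.12 to 1283 CPM in the set of 4 and at 5.10 to 13.3 CPM in the 11 tumours outside it. Genes with no count numbered 3242 to 3670 in skin and 8034 to 10882 in those tumours, and TMM factors were 1.43 to 1.66 in skin and 0.806 to 1.15 in tumours. These differences run along each comparison with skin, and their part in the results was not tested.

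In normal skin the 10 genes spanned a wide range of levels. Per kilobase of exon, Scd1 was highest at 514 ± 202 CPM per kb (SD, n = 4), followed by Fasn at 93.1 ± 51.5, Krt79 at 73.0 ± 26.2 and Cidea at 26.6 ± 12.2. Far2 (23.5 ± 10.3), Scd3 (22.1 ± 9.66), Soat1 (18.8 ± 10.9) and Elovl3 (17.1 ± 3.58) came next, then Awat2 (9.29 ± 5.60) and Mc5r (4.84 ± 2.17). Only the steps from Scd1 to Fasn and from Elovl3 to Awat2 separated neighbours whose ranges over the 4 skin libraries did not overlap. In the 11 tumours outside the set the order differed. By median Cidea came first at 42.1 CPM per kb, then Fasn at 31.4, Scd1 at 25.3 and Krt79 at 20.1. The medians of the other 6 lay between 0.0767 (Mc5r) and 2.31 (Soat1). By mean, the measure used for skin, it ran Cidea (39.4), Scd1 (38.6), Fasn (30.6), Krt79 (29.8) and Elovl3 (11.2). By median in skin Krt79 (83.2) stood above Fasn (79.4). Each pair of neighbours in the median order of the tumours overlapped in range.

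**Figure D1:**
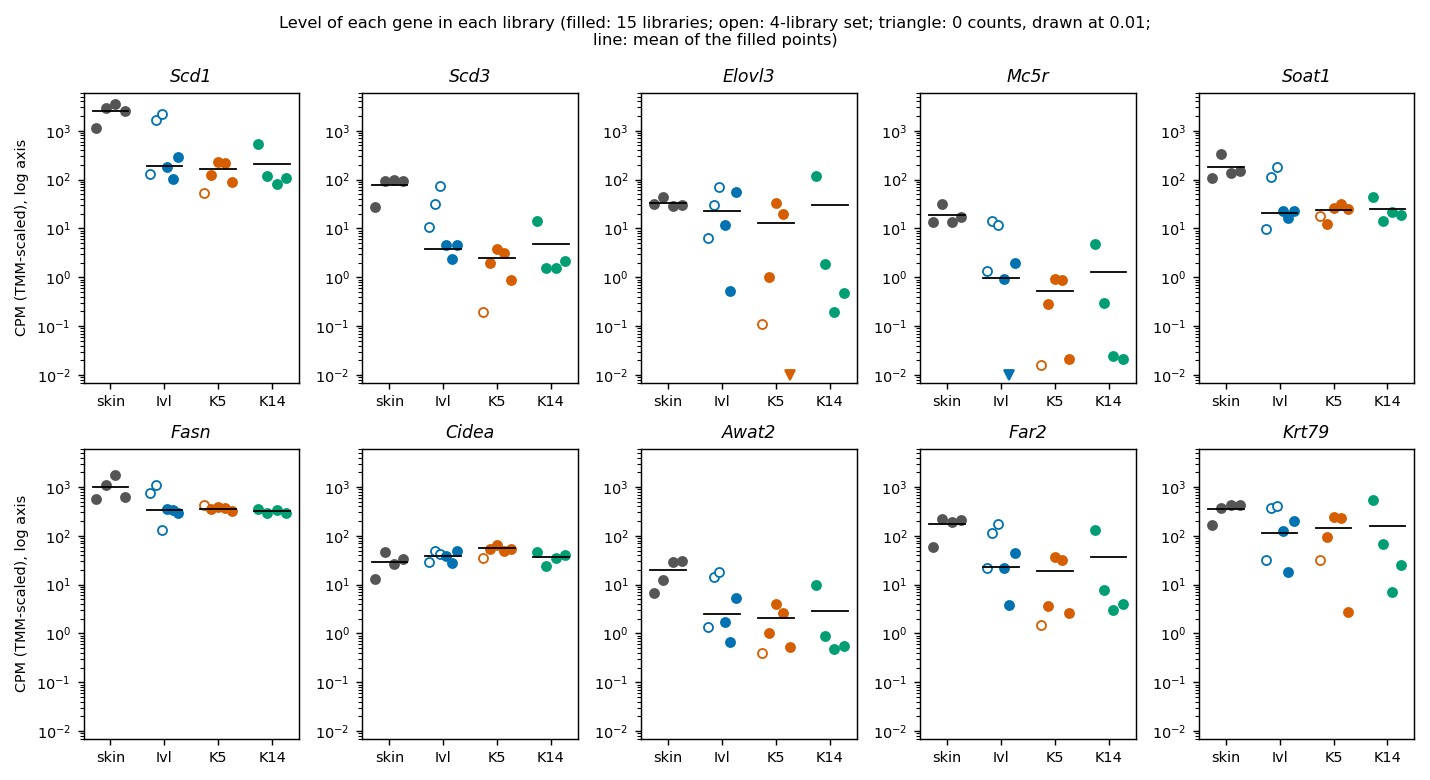
Level of each of the 10 genes in each of the 19 libraries (TMM-scaled CPM, log axis) by group: skin (n = 4), Ivl (n = 6), K5 (n = 5) and K14 (n = 4). Filled points are the 15 libraries, open points the set of 4, triangles libraries with 0 counts drawn at 0.01, and lines the mean of the filled points; filled tumour points lie below the skin points for Scd1, Scd3, Mc5r, Soat1 and Fasn, and not for Cidea.

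Both desaturases were far lower in the tumours. Scd1, which gives sebum its monounsaturated fatty acids, measured 1154, 2943, 3460 and 2508 CPM in the 4 skin libraries. Outside the set it measured 184, 105 and 291 CPM in Ivl tumours 4 to 6, and 124, 227, 221 and 87.7 CPM in K5 tumours 2 to 5. The K14 tumours held 528, 121, 81.9 and 109 CPM. The highest tumour outside the set (K14 tumour 1) was below the lowest skin library, so the groups did not overlap. Within the set, Ivl tumours 2 and 3 held 1653 and 2246 CPM, inside the range of skin, while Ivl tumour 1 (131 CPM) and K5 tumour 1 (52.5 CPM) were low.

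Against skin, Scd1 was 14.6-fold lower in K5/K14 tumours over 19 libraries (log2 fold change -3.87 ± 0.73, SE; adjusted p = 0.00026 in edgeR's quasi-likelihood test) and 13.4-fold lower over 15 (-3.75 ± 0.48, adjusted p = 1.5e-05). In Ivl tumours the difference was -1.71 ± 0.80 log2 over 19 libraries (edgeR adjusted p = 0.096) and -3.70 ± 0.71 over 15 (adjusted p = 0.00069). Over 19 libraries, leaving out Ivl tumour 3 alone brought the Ivl value to -2.40 log2 and past the edgeR threshold (adjusted p = 0.022). The comparisons of Ivl and of K5/K14 tumours with skin share the 4 skin libraries.

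Scd3, a desaturase found mainly in sebaceous glands and the Harderian gland, followed Scd1 at lower levels. Skin held 27.4, 94.4, 100 and 92.4 CPM. Outside the set the Ivl tumours held 4.49, 2.32 and 4.55 CPM, the K5 tumours 1.95, 3.86, 3.15 and 0.886 CPM, and the K14 tumours 13.9, 1.57, 1.56 and 2.19 CPM. Skin 1 was well below the other skin libraries and still above K14 tumour 1, the highest of these tumours. Scd3 was 21.6-fold lower in K5/K14 tumours over 15 libraries (log2 fold change -4.43 ± 0.63, edgeR adjusted p = 4.6e-05) and 24.2-fold lower over 19. In Ivl tumours it differed by -4.38 ± 0.95 log2 over 15 libraries (edgeR adjusted p = 0.0018) and by -1.88 over 19 (adjusted p = 0.12). The fall was not shared by each gene of the family. Scd2, a family member active in many tissues, was 1.52-fold higher in K5/K14 tumours over 15 libraries (0.61 log2, edgeR adjusted p = 0.0498). Over 19 it differed by 0.55 log2 (edgeR adjusted p = 0.066). These values rest on TMM: with library totals alone the median of all genes moved from -0.64 to -1.44 log2 over 15 libraries. The sign of Scd2 under that scaling is not given here. Scd4 was low throughout, at 0.686 to 2.65 CPM in skin and at most 0.804 CPM in the 11 tumours, and fell by 2.15 on the log2 scale over 15 libraries (edgeR adjusted p = 0.0054) and by 2.29 over 19 (adjusted p = 0.0073).

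The start and the lengthening of the chain behaved differently from each other. Fasn measured 561, 1117, 1778 and 621 CPM in skin. In the 11 tumours outside the set it stayed between 289 (K14 tumour 2) and 384 CPM (K5 tumour 3), a ratio of highest to lowest of 1.33 against 3.17 in skin. No tumour outside the set reached the lowest skin library, and the spread between these tumours was the smallest of the 10 genes (coefficient of variation 9.56%). In the set it ranged from 134 CPM in Ivl tumour 3 to 1096 in Ivl tumour 2. Fasn was 3.02-fold lower in K5/K14 tumours over 15 libraries (log2 fold change -1.59 ± 0.22, edgeR adjusted p = 1.8e-05) and 3.09-fold lower in Ivl tumours (-1.63 ± 0.30, adjusted p = 0.00039). Over 19 libraries it was 2.94-fold lower in K5/K14 tumours (edgeR adjusted p = 0.0015) and differed by -1.05 log2 in Ivl tumours (adjusted p = 0.051).

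Elovl3, which builds the very long chains of sebum, was at 31.4, 44.3, 29.0 and 30.4 CPM in skin, the tightest of the 10 genes there. Its level in tumours ran from none to well above skin. K14 tumour 1 held 119 CPM, 352% of the skin mean, and Ivl tumour 6 held 55.9 CPM, while K5 tumours 3 and 4 held 32.5 and 19.4 CPM and Ivl tumour 4 held 12.0 CPM. The other 6 tumours outside the set lay between 0 and 1.87 CPM. K5 tumour 5 had 0 counts, which allows up to 0.0648 CPM at a floor of 3 counts (counting error only). Neither group differed from skin by edgeR (K5/K14 -0.63 ± 1.53 log2 over 15 libraries, adjusted p = 0.73; Ivl -0.56 ± 1.97, adjusted p = 0.82; over 19 libraries -0.80 and -0.22, adjusted p = 0.64 and 0.92), and the 95% intervals over 15 libraries, from -3.94 to 2.67 and from -4.83 to 3.698, held large differences in both directions. Without K14 tumour 1 the K5/K14 value was -2.11 ± 1.37 log2 over 15 libraries (edgeR adjusted p = 0.19).

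Soat1, which makes cholesterol esters, was lower in each tumour outside the set. Skin held 108, 342, 135 and 150 CPM. The 11 tumours held 12.1 to 44.5 CPM with a median of 22.6, so the groups stood apart by a wide margin. In the set, Ivl tumours 2 (116 CPM) and 3 (181 CPM) were at skin levels and Ivl tumour 1 (9.93 CPM) and K5 tumour 1 (18.2 CPM) were not. The fold was 7.55 in K5/K14 tumours (log2 fold change -2.92 ± 0.34, edgeR adjusted p = 4.3e-06) and 8.95 in Ivl tumours (-3.16 ± 0.49, adjusted p = 0.00011) over 15 libraries, both lower than skin. Over 19 libraries it was 7.77-fold lower in K5/K14 tumours (edgeR adjusted p = 0.00043) and differed by -1.58 ± 0.65 log2 in Ivl tumours (adjusted p = 0.065).

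The pair of wax enzymes moved with each other. Far2 measured 60.2, 219, 193 and 214 CPM in skin, and Awat2 measured 6.69, 12.7, 29.0 and 30.7 CPM. In the 11 tumours Far2 ran from 2.57 (K5 tumour 5) to 134 CPM (K14 tumour 1) and Awat2 from 0.479 (K14 tumour 3) to 9.87 CPM (K14 tumour 1). K14 tumour 1 overlapped skin for both genes, and the other 10 tumours lay below the lowest skin library. Awat2 fell by 2.97 on the log2 scale in K5/K14 tumours over 15 libraries (SE 0.82, edgeR adjusted p = 0.0059) and was 8.68-fold lower over 19 (adjusted p = 0.0055). Far2 fell by 2.62 (SE 1.03, edgeR adjusted p = 0.038) and by 2.78 (adjusted p = 0.028). The Far2 call was lost without skin 2 (edgeR adjusted p = 0.058) or skin 4 (adjusted p = 0.054) over 19 libraries, and under 10 of the 15 single omissions over 15. Without K14 tumour 1 the Far2 value was -3.76 ± 0.86 log2 over 15 libraries (edgeR adjusted p = 0.0022). In Ivl tumours over 15 libraries Awat2 differed by -2.96 ± 1.18 log2 (edgeR adjusted p = 0.046), a call lost under 7 of 15 single omissions, and Far2 by -2.88 ± 1.48 (adjusted p = 0.11). Over 19 libraries these Ivl values were -1.52 (edgeR adjusted p = 0.21) and -1.45 (adjusted p = 0.31).

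Mc5r, the receptor through which melanocortins act on sebocytes, had the lowest level of the 10 genes. Skin held 13.8, 31.4, 13.5 and 16.8 CPM. K14 tumour 1 held 4.87 CPM (242 counts), Ivl tumour 6 held 1.98 and Ivl tumour 4 held 0.933, and the other 8 tumours outside the set lay at or below 0.903 CPM. Ivl tumour 5 had 0 counts, which allows up to 0.0703 CPM, and 3 K5 and K14 tumours outside the set had 1 count each. All 11 tumours were below the lowest skin library. The fold was 20.6 in K5/K14 tumours over 15 libraries (log2 fold change -4.36 ± 1.17, edgeR adjusted p = 0.0053) and 23.2 over 19, both lower than skin. In Ivl tumours over 15 libraries it was -4.27 ± 1.74 log2 with an edgeR adjusted p of 0.052, just outside the threshold, and 0.016 without K14 tumour 1, which enters through the shared spread. Over 19 libraries the Ivl value was -1.91 ± 1.34 log2 (edgeR adjusted p = 0.25).

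Krt79, the duct keratin, had the highest ratio of highest to lowest tumour of the members with counts in each of them, while Far2 had a higher coefficient of variation (145% against 114%). Skin held 165, 368, 432 and 423 CPM. Outside the set the Ivl tumours held 124, 18.1 and 200 CPM, the K5 tumours 95.6, 242, 232 and 2.72 CPM, and the K14 tumours 546, 66.5, 6.97 and 25.3 CPM. The highest tumour, K14 tumour 1, exceeded each skin library and the lowest, K5 tumour 5, was 201 times lower than it. Krt79 was not called against skin (K5/K14 over 15 libraries -1.19 ± 1.03 log2, edgeR adjusted p = 0.32; over 19 libraries -1.32 ± 0.98, adjusted p = 0.24). In Ivl tumours it differed by -1.60 ± 1.39 log2 over 15 libraries (edgeR adjusted p = 0.33) and by -0.87 over 19 (adjusted p = 0.51).

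Cidea, the lipid droplet protein, was the member for which no tumour lay below the skin range. It measured 13.3, 46.1, 26.4 and 32.9 CPM in skin and 24.5 to 66.1 CPM in the 11 tumours outside the set, with a median of 46.9. The difference was 0.60 ± 0.27 log2 in K5/K14 tumours over 19 libraries (edgeR adjusted p = 0.061), 0.64 ± 0.29 over 15 (adjusted p = 0.068), and 0.40 and 0.36 in Ivl tumours (adjusted p = 0.25 and 0.39). The sign depended on scaling. With library totals in place of TMM the K5/K14 value was -0.20 log2 over 19 libraries and -0.17 over 15, and under that scaling the median of all genes moved from -0.60 to -1.40 over 19 libraries. Under both scalings the Cidea value stood above that of the median gene.

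Put as counts, 7 of 10 members fell in K5/K14 tumours against skin over 19 libraries (Scd1, Scd3, Mc5r, Soat1, Fasn, Awat2 and Far2), where 38.9% of 32031 genes were called lower, and none rose. Over 15 libraries 7 of 10 fell, where 42.3% of all genes did. In Ivl tumours 0 of 10 passed the edgeR threshold over 19 libraries, where 35.9% of all genes were called (15.5% lower), with 3 at an unadjusted p under 0.05 and 3 called by DESeq2. Over 15 libraries 5 of 10 fell in Ivl tumours (Scd1, Scd3, Soat1, Fasn and Awat2), where 32.7% of all genes did, and 7 by DESeq2. The median log2 fold change of the 10 genes over 15 libraries was -2.77 in K5/K14 tumours and -2.92 in Ivl tumours, against -0.64 and -0.66 over all genes tested. Scd1, Scd3, Mc5r, Soat1 and Fasn (5 of 10) had each of the 11 tumours below each of the 4 skin libraries, as did 26.1% of all genes. The 3 Ivl tumours among them were below skin for 7 members, beside 35.4% of all genes, and the 8 K5 and K14 tumours for 5, beside 28.1%. With the set included no member did, beside 6.27% of all genes. In bulk RNA, fewer sebocytes and less of a message in each sebocyte cannot be told apart. Nor can either be told apart from a change in other cells that carry these messages, such as fat. The same holds for the mix of tissues in a sample and for the difference in kind between skin and tumour libraries.

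**Figure D2:**
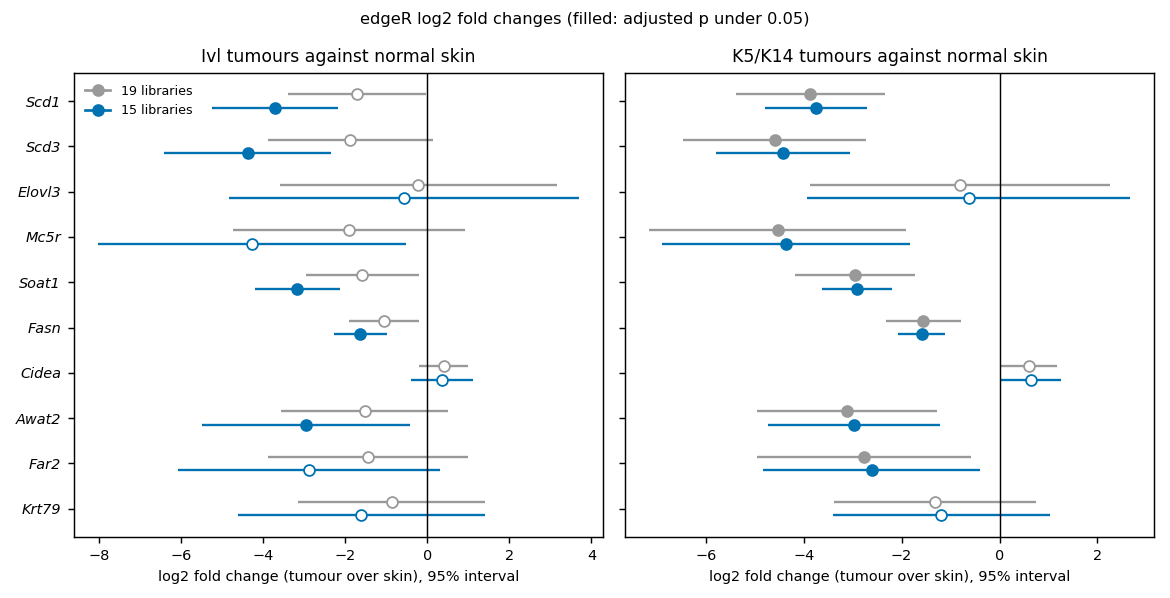
Log2 fold change of each gene in Ivl tumours (left) and K5/K14 tumours (right) against the 4 skin libraries, with 95% intervals; grey is the fit of 19 libraries, blue that of the 15, and filled points have an edgeR adjusted p under 0.05. In the K5/K14 comparison 7 points are filled in both fits, in the Ivl comparison none over 19 libraries and 5 over 15, and Cidea alone lies right of 0.

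Tumours of different origin were compared next, and no member passed the test. Between Ivl and K5/K14 tumours 0 of 10 members were called by edgeR over 19 libraries, where 2.36% of all genes were, with 4 at an unadjusted p under 0.05, each higher in Ivl, and 2 by DESeq2 (Scd1 and Scd3). Over 15 libraries 0 of 10 were called by edgeR and by DESeq2, where edgeR called 0.41% of all genes, and 0 had an unadjusted p under 0.05. The values were then close to 0 with wide intervals: Scd1 0.04 log2 (95% interval -1.12 to 1.21) where it had been 2.16 over 19 libraries, Scd3 0.06 (-1.47 to 1.58) where it had been 2.72, and Fasn -0.03 (-0.58 to 0.51) where it had been 0.51. Over 19 libraries, leaving out K14 tumour 1 brought Scd1, Scd3 and Mc5r past the edgeR threshold (adjusted p = 0.033, 0.023 and 0.040), and leaving out Ivl tumour 5 brought Scd1 and Scd3 past it (adjusted p = 0.046 and 0.048). Between K5 and K14 tumours 0 of 10 members were called by edgeR or DESeq2 over 19 or 15 libraries, and none had an unadjusted p under 0.05, where edgeR called 0% of all genes over 19 libraries and 0.0532% over 15. The sign of 8 members in that comparison (each but Fasn and Cidea) turned when K14 tumour 1 was left out. Over 19 libraries Elovl3 was -1.52 log2 in K5 against K14 with that tumour and 3.62 without it. The sign of Soat1 also turned without K5 tumour 2.

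Tumours of 1 group differed widely from each other. Outside the set, K14 tumour 1 was the highest of 11 tumours for 8 members, and K5 tumour 3 for Fasn and Cidea. As a share of the skin mean, K14 tumour 1 held 157% for Krt79, 78.3% for Far2, 49.97% for Awat2, 25.7% for Mc5r, 24.2% for Soat1, 20.97% for Scd1 and 17.7% for Scd3. The members thus stood at unequal levels there, with Elovl3 and Krt79 above the skin mean and the desaturases well below it, in a library that also had the highest hair follicle sum of these tumours (2020 CPM). Ivl tumour 6 and K5 tumours 3 and 4 came next, with Elovl3 at 166%, 96.2% and 57.5% of skin and Scd1 at 11.6%, 9.03% and 8.80%. At the other end, K5 tumour 5 held 3.49% for Scd1, 1.499% for Far2 and 0.785% for Krt79, while its Cidea was at 183% and its Fasn at 32.2%. The ratio of highest to lowest tumour was 201 for Krt79, 52.2 for Far2, 20.6 for Awat2, 15.7 for Scd3, 6.44 for Scd1, 3.696 for Soat1, 2.70 for Cidea and 1.33 for Fasn.

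**Figure D3:**
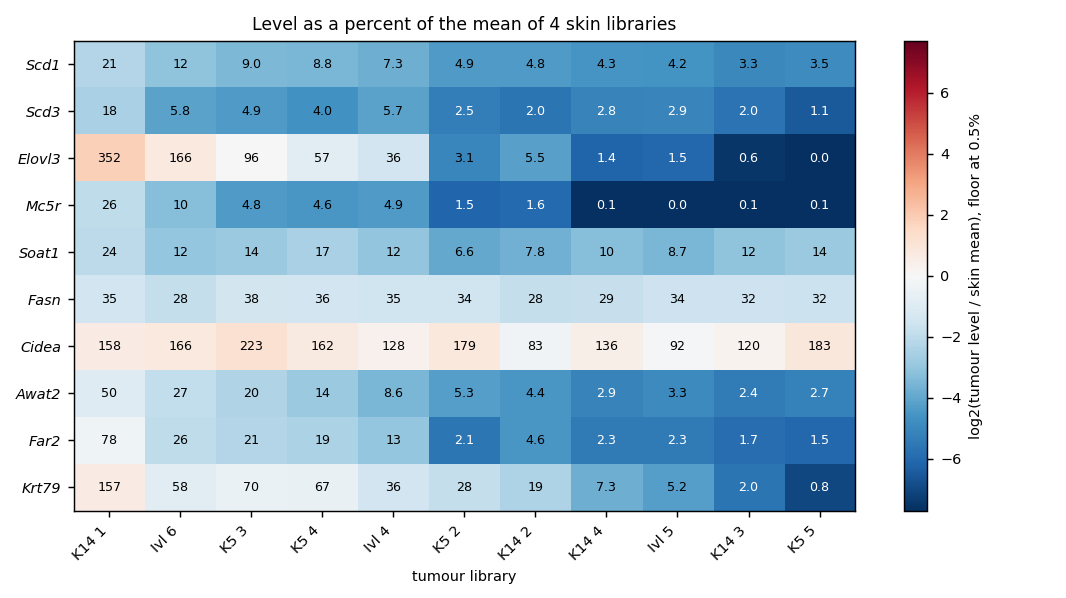
Level of each gene in each of the 11 tumours outside the set as a percent of the mean of 4 skin libraries (numbers), coloured by log2 of that ratio, with tumours ordered by the mean of the 10 genes. K14 tumour 1 on the left is highest for 8 genes and K5 tumour 5 on the right is lowest for 4, while Fasn stays between 28.3% and 37.7% and Cidea between 82.6% and 223%.

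Across these 11 tumours most members rose and fell with each other, given as a description over libraries that share their scaling. Over all 45 pairs of the 10 members, Pearson's r of log2 CPM had a median of 0.681 (range 0.224 to 0.985). Over the 28 pairs of the 8 members without Cidea and Fasn the median was 0.899 (range 0.353 to 0.985), a split that was not planned. Pairs with Cidea had a median of 0.384 and pairs with Fasn 0.336. Among 14600 genes with a mean over 1 CPM in these tumours, the 5 most like the mean of the 10 members were Aadacl4 (r = 0.977), Dgat2l6 (0.976), Gm13124 (0.975), Awat1 (0.973) and Gm13178 (0.963). Awat1 encodes another wax synthase. It measured 40.2 CPM in K14 tumour 1, 20.1 in Ivl tumour 6, and 0 in K5 tumour 5, against 4.15 to 49.0 CPM in skin. Dgat2l6, of the same acyltransferase family, held 14.6 CPM in K14 tumour 1 and 0.0209 in K14 tumour 4, against 0.857 to 24.8 in skin.

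More regulators of sebocytes fell than rose. Of 9 regulators and identity genes, 5 fell and 1 rose in K5/K14 tumours over 15 libraries, where 42.3% of all genes fell, with a median log2 fold change of -1.77 against -0.64 over all genes. Mlxipl, a glucose-sensing activator of lipid synthesis, differed by -4.20 ± 0.62 log2 (edgeR adjusted p = 4.2e-05). Prdm1, a repressor found in cells of the gland and in maturing keratinocytes, rose from 27.9 to 47.4 CPM in skin to 51.3 to 128 CPM in the tumours (0.96 ± 0.23 log2, edgeR adjusted p = 0.0021). Over 19 libraries 5 of the 9 fell and 1 rose in K5/K14 tumours (38.9% of all genes fell). In Ivl tumours 2 fell and 1 rose over 19 libraries (15.5% of all genes fell), and 6 fell and 1 rose over 15 (32.7%). Among all genes, 7647 of 31971 rose in K5/K14 tumours and 7101 in Ivl tumours over 15 libraries. Over 19 libraries 7440 of 32031 rose in K5/K14 tumours and 6535 in Ivl tumours. The same shares and counts of all genes stand behind the counts of the lists that follow.

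Enzymes of fatty acid synthesis, elongation and desaturation moved in both directions. Of 18, 11 fell and 4 rose in K5/K14 tumours over 15 libraries (3 rose over 19), and the median of -0.71 log2 was near the -0.64 of all genes. Elongases fell and rose: Elovl5, which lengthens polyunsaturated chains, differed by -1.69 ± 0.19 log2 (edgeR adjusted p = 1.6e-06). Elovl1, an elongase of very long saturated chains in the epidermal barrier, rose by 1.92 ± 0.21 (edgeR adjusted p = 1.2e-06), and Elovl7 by 1.56 ± 0.28 (adjusted p = 0.00022). Acacb, the carboxylase that restrains fatty acid burning, fell by 3.34 on the log2 scale (edgeR adjusted p = 0.00014). In Ivl tumours over 15 libraries 7 of the 18 fell and 3 rose, and over 19 libraries 1 fell and 2 rose.

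Of 15 genes of esterification and lipid droplets outside the member list, 5 fell in K5/K14 tumours over 15 libraries and 5 over 19, a smaller share than among all genes (42.3% and 38.9%), and 10 were not called. In Ivl tumours 5 fell over 15 libraries and 2 over 19. Gpam, which begins glycerolipid synthesis, differed by -1.54 ± 0.16 log2 in K5/K14 tumours over 15 libraries (edgeR adjusted p = 1.1e-06), and Pnpla3, a lipase of droplets, by -1.70 ± 0.27 (adjusted p = 6.7e-05). Awat1 (-1.78 ± 1.36 log2, edgeR adjusted p = 0.26) and Dgat2l6 (-2.16 ± 1.44, adjusted p = 0.20) were not called, with K14 tumour 1 in the fit.

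The duct and upper follicle list split. Of 6 genes, 3 fell and 2 rose in K5/K14 tumours over both 15 and 19 libraries. Lrig1, a marker of upper follicle stem cells, fell by 0.79 on the log2 scale over 15 libraries (edgeR adjusted p = 6.3e-05), and Gata6, a factor of the duct lineage, by 3.19 (adjusted p = 0.0021). Krt17, a keratin of follicles and of wounded epidermis, rose by 2.82 (edgeR adjusted p = 4e-05), and Plet1, a marker of the follicle junction, by 2.88 (adjusted p = 0.0040). In Ivl tumours 2 fell and 1 rose over 15 libraries, and 1 fell and 2 rose over 19.

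Markers of other tissues in whole skin moved with the members, and their part in the results was not tested. The summed level of 6 skeletal muscle genes, which the muscle sheet under the skin carries, was 2218 to 6798 CPM in skin and 5.76 to 491 CPM in the 11 tumours. In K5/K14 tumours 6 of 6 fell over 15 and over 19 libraries, among them Acta1, the muscle actin. In Ivl tumours 1 of 6 fell over 15 libraries, and over 19 edgeR called 0, with 0 at an unadjusted p under 0.05 and 0 by DESeq2. Of 10 white adipocyte markers 9 fell in K5/K14 tumours over 15 libraries and 7 over 19. In Ivl tumours 7 fell and 1 rose over 15 libraries, and over 19 edgeR called 0, with 3 at an unadjusted p under 0.05 and 3 by DESeq2. Adipoq, the fat hormone, was at 11.7 to 34.8 CPM in skin and at 0 in 5 of the 11 tumours, while the list's sum (324 to 1057 CPM in skin, 125 to 3525 in tumours) was carried by Fabp4.

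Ucp1, which defines brown fat, stayed at or below 1.07 CPM in each library. Of 6 brown fat markers 3 fell and 1, Ucp1 itself, rose in K5/K14 tumours over 15 and 19 libraries, and in Ivl tumours 3 fell and 2 rose over 15 and 1 fell and 2 rose over 19. The mammary markers were near 0, with sums of at most 0.712 CPM in each group outside the set, 1 of 4 called in each direction in both tumour groups, and Csn2 not in the table. Of 4 bulge markers (469 to 1495 CPM in skin, 140 to 338 in tumours) 4 fell in K5/K14 tumours over 15 and 19 libraries, and 3 and 1 fell in Ivl tumours. Of 4 macrophage markers (57.8 to 506 CPM and 83.8 to 184 CPM) 3 fell in K5/K14 tumours over 15 libraries, among them Csf1r, and 1 in Ivl tumours. Over 19 libraries edgeR called 0 of the 4 in either tumour group, with 2 (K5/K14) and 0 (Ivl) at an unadjusted p under 0.05 and 3 and 0 by DESeq2.

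Hair follicle and epidermis markers moved apart. Hair shaft and root sheath genes summed to 5042 CPM in the highest and 40.7 CPM in the lowest skin library, skin 2, where Krt71 was at 0.922 CPM while each member but Awat2 was above the skin mean. In the tumours the sum was 92.9 to 2020 CPM, highest in K14 tumour 1. Of 9 genes 1 fell in K5/K14 tumours over 15 and 19 libraries, and in Ivl tumours edgeR called 0 in both, with 0 at an unadjusted p under 0.05 and 0 by DESeq2. The 6 epidermis genes summed to 4767 to 10183 CPM in skin and 50014 to 99985 CPM in the tumours, and 6 of 6 rose in both comparisons, with Krt14 3.71 ± 0.23 log2 higher in K5/K14 tumours over 15 libraries (edgeR adjusted p = 8.3e-09).

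Among the 11 tumours, the mean of the members (the mean of their centred log2 levels) ran with the same mean over most of the other lists, given as Pearson's r over libraries that share their scaling. It was 0.973 for fatty acid enzymes, 0.940 for esterification, 0.879 for regulators, 0.871 for muscle, 0.870 for bulge, 0.846 for upper follicle and 0.834 for adipocyte markers. Brown fat (0.741), macrophage (0.692), hair follicle (0.664) and mammary markers (0.464) followed, and epidermis markers ran the other way (-0.335). This mean was chosen after seeing the data. The levels were not scaled to equal spread, so the genes that vary most weigh most in it. Summed CPM, which 1 abundant gene can carry, gave similar values for muscle (0.882), macrophage (0.699), hair (0.687) and epidermis (-0.262). It gave lower ones for esterification (0.610), bulge (0.550), mammary (0.353), fatty acid (0.217), upper follicle (0.169), brown fat (0.144) and regulators (0.0667), and the opposite sign for the adipocyte sum (-0.416), where Fabp4 reached 3474 CPM in Ivl tumour 5. Taken gene by gene, the median r with the member mean was 0.398 for fatty acid enzymes (13 of 18 positive) and 0.319 for esterification (12 of 15). It was 0.484 for regulators (7 of 9), 0.832 for muscle (6 of 6), 0.509 for bulge (4 of 4) and 0.347 for upper follicle (5 of 6). For adipocyte markers it was 0.784 (8 of 10), for brown fat 0.179 (3 of 6), macrophage 0.717 (3 of 4), hair follicle 0.666 (9 of 9), mammary 0.101 (2 of 4) and epidermis -0.159 (0 of 6). Adipoq was at 4.95 CPM in K14 tumour 1, 1.41 in Ivl tumour 6, 4.09 in K5 tumour 3 and 8.37 in K5 tumour 4, and at 0 in K5 tumour 5 and K14 tumours 3 and 4. K14 tumour 1 and Ivl tumour 6 had both the highest members and the highest muscle sums (462 and 491 CPM). K5 tumour 5 had the lowest members and a muscle sum of 7.15 CPM. What moved these lists and the members was not tested.

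**Figure D4:**
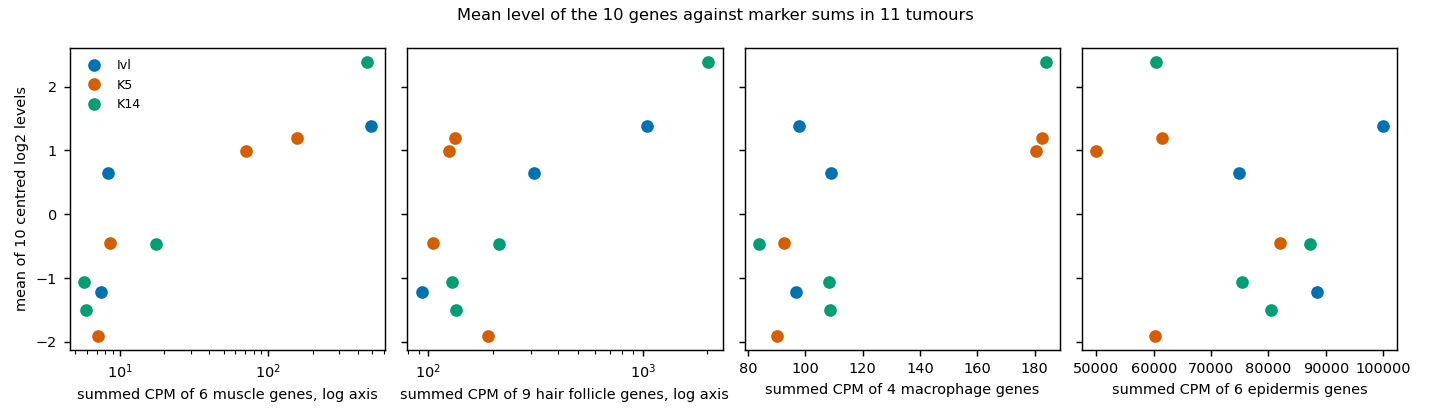
Mean of the 10 centred log2 levels in each of the 11 tumours outside the set against the summed CPM of muscle and hair follicle genes (log axes) and of macrophage and epidermis genes, coloured by the promoter that drove the recombinase. The 4 tumours with the highest member means (K14 tumour 1, Ivl tumour 6, K5 tumours 3 and 4) are those with the highest muscle sums, and their epidermis sums run from 50014 to 99985 CPM, the whole range of the 11.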

How the data were processed

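Poly(A) RNA of 19 samples was sequenced as strand-specific, paired 101-base reads. According to the submitters' processing notes, FastQC 0.11.8, Trim Galore, HISAT2 2.1.0, featureCounts and Subread 1.6.3 were used. The authors deposited expected counts per gene (GRCm38, Ensembl), adjusted for batch with ComBat-seq and already whole numbers, so the values are not raw read counts and the p-values take no account of the adjustment. The study describes batches of 4 and 15 samples sequenced at different times, and which library belongs to which is not given in the sources used here.

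A gene entered the tests when 1 library or more held 5 counts or more of it (32031 of 34807, and 31971 within 15 libraries). Counts were scaled by TMM and tested with edgeR 4.0.16 in R 4.3.3 (quasi-likelihood test, two-sided, Benjamini-Hochberg adjustment over all genes tested, called at an adjusted p under 0.05, prior count 2). The SE of a log2 fold change was its size over the root of F, and 95% intervals used the t quantile at the degrees of freedom of the fit. Ivl, pooled K5/K14 and skin libraries shared 1 fit, and K5 was compared with K14 in a fit of 4 groups. Alternatives used DESeq2 1.42.0, other scalings, other filters, a replicate block and leaving out each library. The scripts were tested on simulated data.

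The members and gene lists were chosen with earlier results of these data known. Other genes were named by rule: per list, up to 2 genes called in each direction, and the 5 genes most like the member mean. The values of 1 gene so named are not reported here. Gene models came from GENCODE (GRCm38), where 34694 identifiers matched and 113 did not. No 2 libraries were duplicates: over 37 replicate pairs the lowest chi-square per degree of freedom was 25.9. Depth limits the low genes, where floors of 3 counts cover counting error only.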

Additional observations from a re-analysis of the deposited data

Results flagged for a closer look

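Each member was tested in each group for a highest or lowest library far from the others. The measure was the gap to the nearest library over the range of the group. Of 40 tests, 10 passed the critical value. Chance alone gives about 1 in 20 for independent tests of normally spread values. Here most members rose and fell with each other in the same libraries, and linear CPM was used. The 10 therefore cannot be set against that share. Of the 10, 7 were K14 tumour 1. That library was highest of 4 K14 tumours for Elovl3 (gap over range 0.986; 119 CPM against 0.192 to 1.87), Far2 (0.963; 134 against 2.99 to 7.81) and Awat2 (0.958; 9.87 against 0.479 to 0.876). The same held for Scd3 (0.949; 13.9 CPM against 1.56 to 2.19), Mc5r (0.942; 4.87 against 0.0209 to 0.300), Scd1 (0.913; 528 against 81.9 to 121) and Krt79 (0.890; 546 against 6.97 to 66.5).

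In normal skin, skin 1 was lowest for Scd3 (gap over range 0.892; 27.4 CPM against 92.4 to 100) and Far2 (0.839; 60.2 against 193 to 219). Skin 2 was highest for Elovl3 (0.840; 44.3 CPM against 29.0 to 31.4).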

How the results depend on the processing

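In Ivl tumours against skin 0 members were called over 19 libraries, but 5 within 15 libraries, 3 with DESeq2, 3 with library totals only, and 2 each with RLE size factors, with protein-coding totals and with the filterByExpr filter. Between Ivl and K5/K14 tumours DESeq2 called 2. Leaving out 1 library gave 0 to 3 calls for Ivl against skin, 6 to 8 for K5/K14 against skin and 0 to 3 for Ivl against K5/K14 over 19 libraries, and 4 to 7, 6 to 7 and 0 to 0 over 15. K5 against K14 stayed at 0 to 0 in both. Replicate numbers did not pair the samples (9 of 25 same-numbered pairs correlated above 0.1, range -0.33 to 0.21, and 2 of 19 libraries correlated best with their own number). With a replicate block 0, 8, 0 and 0 members were called over 19 libraries, with Cidea added for K5/K14 against skin (edgeR adjusted p = 0.049).

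With library totals only Cidea turned to -0.27 log2 (Ivl) and -0.20 (K5/K14) against skin over 19 libraries, and to -0.50 and -0.17 over 15, as the median gene moved from -0.46 to -1.13 and from -0.60 to -1.40 over 19 libraries. The share of calls that were higher went from 56.8% to 15.6% in Ivl and from 37.4% to 13.5% in K5/K14 tumours, with 40.8% and 29.7% under protein-coding totals and 45.6% (Ivl) under RLE. Within 15 libraries Soat1 (-0.25 log2), Fasn (-0.034), Far2 (-0.26) and Krt79 (-0.42) turned between Ivl and K5/K14. Leaving out 1 library turned Elovl3 in Ivl against skin (-0.72 to 0.037 over 19 libraries, -2.43 to 0.0090 over 15). In K5 against K14 it turned Scd1 (-0.82 to 0.46), Scd3 (-1.65 to 0.17), Elovl3 (-2.57 to 3.62), Mc5r (-2.17 to 1.82), Soat1 (-0.32 to 0.32; 0.032 without K5 tumour 2), Awat2 (-1.35 to 1.42), Far2 (-1.91 to 1.62) and Krt79 (-0.84 to 1.86). The causes were not tested. Of the other values of single members, 48 passed and 19 lost the threshold in an alternative and 1414 kept their side. The DESeq2, RLE, totals and protein-coding fits within 15 libraries were chosen after seeing the data.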
